A study of Mus musculus with 18 samples.

Results

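Kupffer cells are the resident macrophages of the liver, and 9 genes by which they are recognised were followed here: Adgre1, Cd5l, Vsig4, Timd4, Marco, Id3, Folr2, Csf1r and Mertk. They were found by their symbols among 33235 genes, and all 9 had a row in both deposited tables. The libraries came from mouse liver after an antisense oligonucleotide (ASO) coupled to GalNAc, a sugar that the asialoglycoprotein receptor of hepatocytes takes up. The control groups are labelled WT and received GalNAc-conASO, and the other groups are labelled MDM2 knockdown and received GalNAc-Mdm2ASO, against the transcript of Mdm2, whose product restrains the tumour suppressor p53. Each ASO was given on 2 diets, one named in the labels by its abbreviation HFHC and the other being CDAHFD, a high-fat diet with defined amino acids that lacks choline. Age, sex, dose and time on the diet are not given in the sources used here.

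The HFHC diet had 4 control libraries (replicates 1, 2, 4 and 5) and 4 Mdm2 ASO samples (6, 7, 9 and 10). Replicates 6 and 7 of the latter held identical values in every gene, while any other pair of replicates differed in at least 18001 genes, so they were counted as 1 library, written 6-7. The CDAHFD diet had 5 control libraries (1 to 5) and 5 Mdm2 ASO libraries (6 to 10), which makes 17 libraries from 18 samples. The labels do not say that replicates are separate animals, and p-values then measure the spread between these samples, which may be technical. Each library held 17770748 to 18798144 gene-assigned reads on HFHC and 22376178 to 31453055 on CDAHFD. Mdm2 itself went from 945 ± 25.6 (SD, n = 4) to 362 ± 58.2 normalized counts (SD, n = 3) on HFHC and from 1565 ± 87.7 (SD, n = 5) to 647 ± 124 (SD, n = 5) on CDAHFD, a fall of the target in both (limma adjusted p = 1.1e-05 and 3.1e-05). The tables were normalized separately for each diet, so levels are compared within a diet.

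Kupffer cells line the sinusoids, where they take up microbes, dying cells, red cells and modified lipoproteins from the blood. Most are seeded before birth and renew themselves in place, and when they are lost, monocytes from the blood enter the niche and take on the same genes, Timd4 among the last. The identity depends on the growth factor receptor Csf1r, on Notch and BMP signals from neighbouring endothelial and stellate cells, and on transcription factors such as PU.1 (encoded by Spi1), LXR-alpha (Nr1h3), SpiC, MAF family members and Id3. Clec4f, a lectin found on Kupffer cells and on few other cells, is their most specific marker in the mouse. It was present in every library, at 1198 ± 422 normalized counts (SD, n = 4) in HFHC controls and 1002 ± 288 (SD, n = 5) in CDAHFD controls. In whole liver, a change in the number of these cells and a change in RNA per cell cannot be told apart.

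On HFHC, 5 of the 9 genes were higher after the Mdm2 ASO, Csf1r, Adgre1, Cd5l, Folr2 and Mertk, with fitted folds of 1.64 to 3.71, and Id3 was lower. The same 5 genes had every Mdm2 ASO library above every control library. On CDAHFD 0 of the 9 rose in limma, edgeR or DESeq2, nor at an unadjusted limma p under 0.05, and 1, Cd5l, fell. The response differed between the diets for Adgre1, Cd5l, Vsig4 and Csf1r, each with a lower response on CDAHFD. The Vsig4 call was lost in 15 of 26 alternative fits. Table, normalization and read depth changed together with the diet. Their parts in any difference between the diets, here and below, cannot be told apart from that of the diet. A gene is called where its Benjamini-Hochberg adjusted p in limma, over all genes tested, is under 0.05. The background of calls was high. On HFHC 30.6% of all genes tested were called, 16.8% higher and 13.8% lower, and in 38.7% the groups did not overlap, with the Mdm2 ASO libraries above all controls in 20.7% and below them in 18.0%. On CDAHFD 13.0% were called, 6.12% higher and 6.86% lower, and the groups did not overlap in 10.6%, 4.95% above and 5.62% below, against 0 of the 9 genes. For the difference between diets 23.5% were called, 13.6% with a lower response on CDAHFD and 9.83% with a higher one. The median log2 fold change of the 9 genes was 1.00 on HFHC and -0.24 on CDAHFD, against -0.01 and 0.00 over all genes tested. The split of HFHC calls turned with the scaling, from 2932 higher and 2399 lower to 2482 and 3725 after quantile normalization and 3391 and 1460 with the same total per library. For the difference it went from 1606 higher and 2226 lower to 2440 and 1961, and to 965 and 2665. These scalings moved the median of all genes by -0.10 and 0.10 on HFHC and by 0.10 and -0.12 for the difference. On CDAHFD the 2181 calls became 1232 without control replicate 2, 1459 without control replicate 4 and 1426 without Mdm2 ASO replicate 8.

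**Figure D1:**
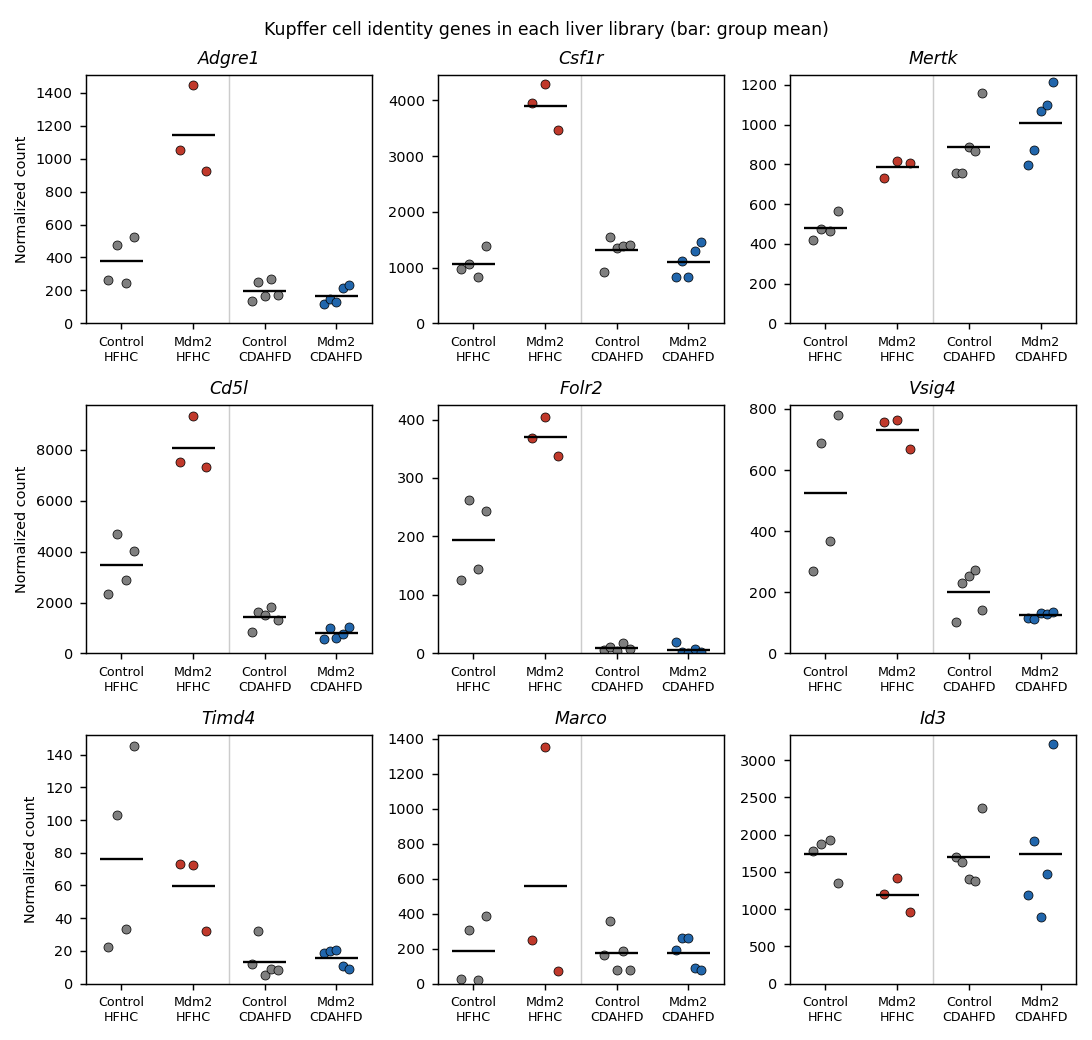
Normalized counts (vertical axis, from 0) of the 9 Kupffer cell identity genes in each of the 17 liver libraries. Grey points are control ASO libraries, red and blue points are Mdm2 ASO libraries on HFHC and CDAHFD, and black bars are group means. The vertical line separates 2 tables that were normalized apart. The red points of Adgre1, Csf1r, Mertk, Cd5l and Folr2 lie above all grey points of their diet.

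RefSeq sequence upstream of the transcription start was at hand for 7 of the 9 genes, in 8 windows since Folr2 has 2 starts. The windows below, each of 250 bases before a start (mouse GRCm38.p6, gene strand, 5′ to 3′), are those of the HFHC-called genes with an entry, shown because Cd5l, Folr2 and Mertk were higher and Id3 lower in the same libraries. Capitals mark a PU.1 core (GAGGAA, or TTCCTC on the other strand) and a MAF half-site (TGCTGA, or TCAGCA), searched on both strands, and no match overlapped another.
Cd5l, chr3:87357631-87357880, plus strand: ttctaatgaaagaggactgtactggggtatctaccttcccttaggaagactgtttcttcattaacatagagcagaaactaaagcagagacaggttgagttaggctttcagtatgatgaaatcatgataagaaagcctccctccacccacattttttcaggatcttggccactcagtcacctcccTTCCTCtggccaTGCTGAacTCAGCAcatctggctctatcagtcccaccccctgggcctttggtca
Folr2, chr7:101845332-101845581, minus strand: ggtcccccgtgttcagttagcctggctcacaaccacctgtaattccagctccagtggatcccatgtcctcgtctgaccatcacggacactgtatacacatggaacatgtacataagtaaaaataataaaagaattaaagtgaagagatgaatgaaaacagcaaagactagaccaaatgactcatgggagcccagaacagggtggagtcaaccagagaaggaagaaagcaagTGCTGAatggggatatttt
Folr2, chr7:101857191-101857440, minus strand: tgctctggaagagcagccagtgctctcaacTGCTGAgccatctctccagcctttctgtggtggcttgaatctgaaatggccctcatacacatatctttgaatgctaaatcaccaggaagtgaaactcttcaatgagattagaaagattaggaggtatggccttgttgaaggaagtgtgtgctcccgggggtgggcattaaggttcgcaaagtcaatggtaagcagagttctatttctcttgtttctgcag
Mertk, chr2:128698665-128698914, plus strand: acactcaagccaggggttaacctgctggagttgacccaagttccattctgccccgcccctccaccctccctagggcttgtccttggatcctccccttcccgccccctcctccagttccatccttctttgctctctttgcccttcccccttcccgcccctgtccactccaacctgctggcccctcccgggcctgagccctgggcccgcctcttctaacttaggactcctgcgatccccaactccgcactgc
Id3, chr4:136143572-136143821, plus strand: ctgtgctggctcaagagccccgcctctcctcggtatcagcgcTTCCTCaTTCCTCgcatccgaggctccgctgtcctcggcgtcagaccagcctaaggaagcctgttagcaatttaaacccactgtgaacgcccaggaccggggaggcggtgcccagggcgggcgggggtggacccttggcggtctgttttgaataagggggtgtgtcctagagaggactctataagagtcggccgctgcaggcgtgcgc

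The PU.1 core was in 4 of the 8 windows (Cd5l, Id3, Marco and Vsig4), against 23.3% of 32851 promoter windows of the same length. The MAF half-site was also in 4 windows (Cd5l, both of Folr2, and Timd4), against 16.1%. Cd5l was the gene with both kinds, and the Mertk window had neither. TGGGAA, the core bound by the Notch partner RBPJ, was in the Marco window, against 21.6% of windows. GGCGCC, a BMP-responsive SMAD element, was in 0 of 8 windows, against 9.59%. The LXR direct repeat, AGGTCA doubled with a gap of 4 bases, was in 0 of 8, against 0.0152%. A p53 full site was in 0 of 8 windows, against 0.0639%, and a p53 half-site in 1, Mertk, against 7.13%. Such matches describe the letters in these windows.

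Csf1r encodes the receptor for the growth factors Csf1 and Il34, on which macrophages and many monocytes depend. In the HFHC libraries it stood at 970, 1071, 834 and 1393 normalized counts in controls 1, 2, 4 and 5, and at 3952, 4292 and 3476 in Mdm2 ASO libraries 6-7, 9 and 10. The groups were far apart, and the lowest Mdm2 ASO library was well above the highest control. The means were 1067 ± 238 (SD, n = 4) and 3906 ± 410 (SD, n = 3), a fitted fold of 3.71 and a log2 fold change of 1.89 (SE 0.16, limma adjusted p = 1.9e-05). In CDAHFD controls 1 to 5 it stood at 922, 1556, 1357, 1382 and 1403, and in Mdm2 ASO libraries 6 to 10 at 826, 1115, 825, 1294 and 1452. These groups overlapped over most of their range, with 2 low Mdm2 ASO libraries. The log2 fold change was -0.28 (SE 0.17, limma adjusted p = 0.304).

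Adgre1 encodes F4/80, the surface receptor by which mouse macrophages are most often stained. Its HFHC control values were 266, 476, 245 and 523 normalized counts, and those after the Mdm2 ASO were 1055, 1445 and 925. Controls 2 and 5 were well above controls 1 and 4, yet all 4 were below the Mdm2 ASO libraries. The group means of 377 ± 142 (SD, n = 4) and 1142 ± 271 (SD, n = 3) gave a fitted fold of 3.14, a log2 fold change of 1.65 (SE 0.28, limma adjusted p = 0.0018). The CDAHFD controls had 136, 249, 163, 270 and 170, and the Mdm2 ASO libraries 115, 148, 132, 212 and 230. Here the groups overlapped, the log2 fold change being -0.24 (SE 0.23, limma adjusted p = 0.526).

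Mertk encodes a receptor kinase of the TAM family that lets macrophages engulf dying cells through the bridging ligands Gas6 and protein S. It was at 419, 476, 463 and 567 normalized counts in HFHC controls and at 731, 819 and 808 after the Mdm2 ASO. Both groups were tight and apart. The mean went from 481 ± 62 (SD, n = 4) to 786 ± 48.2 (SD, n = 3), a log2 fold change of 0.71 (SE 0.11, limma adjusted p = 0.0009). On CDAHFD the controls had 757, 755, 888, 867 and 1158 and the Mdm2 ASO libraries 796, 874, 1070, 1098 and 1212. They overlapped, control 5 lying among the highest, with a log2 fold change of 0.19 (SE 0.14, limma adjusted p = 0.384).

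Cd5l encodes a secreted scavenger protein, also named AIM, that supports macrophage survival. It was among the most abundant of the set, with 2343, 4713, 2893 and 4024 normalized counts in HFHC controls and 7542, 9340 and 7315 after the Mdm2 ASO. Again controls 2 and 5 were the higher ones, and the groups stayed apart. The mean went from 3493 ± 1073 (SD, n = 4) to 8066 ± 1109 (SD, n = 3), a fitted fold of 2.38 and a log2 fold change of 1.25 (SE 0.22, limma adjusted p = 0.00225). On CDAHFD the direction was opposite, with 853, 1627, 1496, 1826 and 1299 in controls and 566, 993, 593, 777 and 1037 after the Mdm2 ASO. Control 1, the low one, overlapped the Mdm2 ASO range, while the other 4 controls were above it. The mean fell from 1420 ± 371 (SD, n = 5) to 793 ± 219 (SD, n = 5), a log2 fold change of -0.84 (SE 0.21, limma adjusted p = 0.0174). Without control replicate 2 this call was lost, at -0.78 (limma adjusted p = 0.0517).

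Folr2 encodes folate receptor beta, a marker of resident macrophages in several tissues. The HFHC controls had 126, 263, 145 and 244 normalized counts and the Mdm2 ASO libraries 368, 405 and 338. The groups were apart, and the pattern of high controls 2 and 5 recurred. The mean went from 194 ± 69 (SD, n = 4) to 370 ± 33.2 (SD, n = 3), a log2 fold change of 1.00 (SE 0.25, limma adjusted p = 0.0138), which was lost without Mdm2 ASO replicate 9 (adjusted p = 0.06) and with 1 fit over all groups (adjusted p = 0.383). On CDAHFD Folr2 was close to the limit of detection, with 5.36, 11.1, 4.59, 18.5 and 7.48 in controls and 18.9, 3.14, 0, 7.66 and 2.26 after the Mdm2 ASO. The groups overlapped in full, and the 0 of Mdm2 ASO replicate 8 allows up to 3.4 normalized counts by counting error. The log2 fold change of -1.21 had an SE of 0.80 (limma adjusted p = 0.348).

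Vsig4 encodes the complement receptor CRIg, which captures bacteria from the blood. It was at 269, 688, 368 and 780 normalized counts in HFHC controls and at 758, 764 and 669 after the Mdm2 ASO. The Mdm2 ASO libraries were close to one another and to controls 2 and 5, so the groups overlapped. The log2 fold change was 0.60 (SE 0.32, limma adjusted p = 0.194). On CDAHFD the controls had 103, 232, 253, 274 and 141 and the Mdm2 ASO libraries 115, 112, 133, 129 and 135. Of the controls, 4 were above all Mdm2 ASO libraries and control 1 was below them. The log2 fold change of -0.59 (SE 0.24, limma adjusted p = 0.114) passed without control replicate 1 (adjusted p = 0.0172) and with DESeq2 on the recovered reads (adjusted p = 0.0263).

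Timd4 encodes a receptor for phosphatidylserine on dying cells and marks the Kupffer cells of embryonic origin. The HFHC controls had 22.7, 103, 33.4 and 145 normalized counts and the Mdm2 ASO libraries 73.2, 72.8 and 32.3. Controls 2 and 5 lay above all Mdm2 ASO libraries and control 1 below them. The log2 fold change was -0.06 with an SE of 0.61 (limma adjusted p = 0.95), and its sign turned with the same total per library and without control 2, control 5 or Mdm2 ASO replicate 10. On CDAHFD Timd4 rested on 6 to 35 reads a library, at 11.8, 32.4, 5.5, 8.86 and 8.41 in controls and 18.9, 19.9, 20.4, 10.5 and 9.05 after the Mdm2 ASO. The groups overlapped, with control 2 far above the other controls, and the log2 fold change was 0.42 (SE 0.46, limma adjusted p = 0.593).

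Marco encodes a scavenger receptor for bacteria and particles that macrophages of the liver, spleen and lung display. It was the most variable of the 9 on HFHC, with 28.9, 304, 22.7 and 389 normalized counts in HFHC controls and 250, 1354 and 74.8 after the Mdm2 ASO. Controls 2 and 5 were again high, and Mdm2 ASO library 9 alone was above them. The log2 fold change of 1.64 had an SE of 1.19 (limma adjusted p = 0.336). The CDAHFD controls had 166, 359, 77.1, 186 and 77.6 and the Mdm2 ASO libraries 195, 260, 261, 90.9 and 80.3. These overlapped throughout, with a log2 fold change of 0.11 (SE 0.43, limma adjusted p = 0.901).

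Id3, an inhibitor of DNA binding by helix-loop-helix factors, is needed for Kupffer cell development, and other liver cells express it too. It was at 1786, 1876, 1924 and 1352 normalized counts in HFHC controls and at 1201, 1414 and 966 after the Mdm2 ASO. Control 5 was below Mdm2 ASO library 9, so the groups overlapped by that 1 control. The mean fell from 1735 ± 261 (SD, n = 4) to 1194 ± 224 (SD, n = 3), a log2 fold change of -0.54 (SE 0.15, limma adjusted p = 0.0239). The call was lost without control 1, 2 or 4 or Mdm2 ASO replicate 10 (adjusted p of 0.0533, 0.0582, 0.0678 and 0.079), with the same total per library (0.0637) and with 1 fit over all groups (0.192). On CDAHFD the values were 1706, 1633, 1399, 1373 and 2356 in controls and 1192, 1910, 890, 1472 and 3221 after the Mdm2 ASO. The Mdm2 ASO libraries spanned the whole control range, with a log2 fold change of -0.08 (SE 0.27, limma adjusted p = 0.881).

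**Figure D2:**
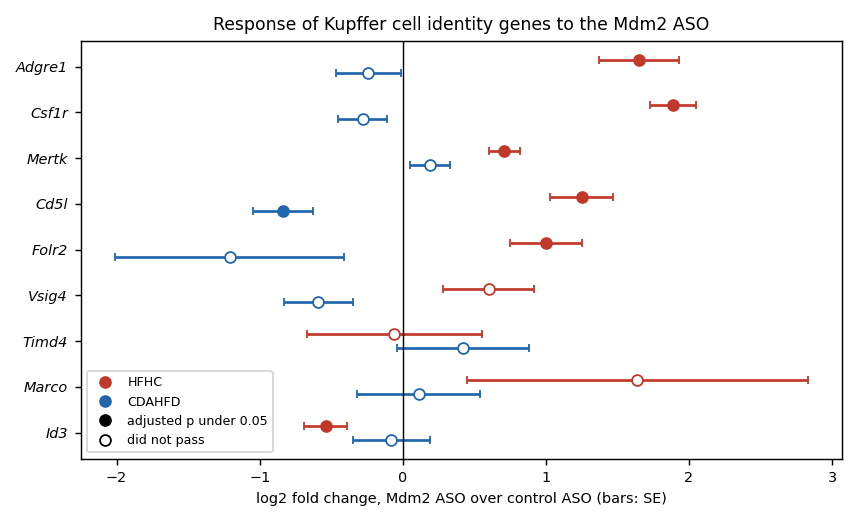
Log2 fold change of the Mdm2 ASO over the control ASO (horizontal axis) for each Kupffer cell identity gene on HFHC (red) and CDAHFD (blue), with bars of 1 SE. Filled points passed an adjusted p of 0.05 in limma and open points did not. The red points of Csf1r (1.89), Adgre1 (1.65) and Cd5l (1.25) are filled and right of 0, and the blue point of Cd5l (-0.84) is filled and left of it.

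The difference between the diets was tested as the log2 fold change on CDAHFD minus that on HFHC. It was -2.17 for Csf1r (SE 0.27, limma adjusted p = 1.1e-05), -2.09 for Cd5l (SE 0.34, limma adjusted p = 0.0002) and -1.90 for Adgre1 (SE 0.39, limma adjusted p = 0.00156). For these 3 genes the gap between the responses thus exceeded its error several times over. Vsig4, called on neither diet by itself, had a difference of -1.19 (SE 0.42, limma adjusted p = 0.0489), just within the threshold. It no longer passed in 15 of 26 alternative fits. Mertk at -0.52 (SE 0.20, limma adjusted p = 0.0644) and Folr2 at -2.21 (SE 1.03, limma adjusted p = 0.136) did not pass, and Mertk passed in 5 of 26 alternatives. Marco at -1.53, Timd4 at 0.48 and Id3 at 0.46 also did not pass (limma adjusted p = 0.414, 0.714 and 0.424). The Folr2 difference is nominally the widest of the 9 and also rests on few CDAHFD reads.

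Per kilobase of exon, the abundance order of the genes shows which transcripts dominate. In HFHC controls Cd5l led at 1716 ± 527 normalized counts per kilobase (SD, n = 4), then Id3 at 968 ± 146 and Vsig4 at 355 ± 166. Cd5l and Id3 each stood clear of the next gene, while the ranges of Vsig4, Csf1r, Folr2, Adgre1, Mertk and Marco each overlapped the next lower one, down to Timd4. After the Mdm2 ASO on HFHC, Cd5l was first at 3962 ± 545 (SD, n = 3), and Csf1r (677 ± 71) and Id3 (666 ± 125) followed with overlapping ranges. Timd4 was last in both HFHC groups, at 35 ± 26.8 and 27.4 ± 10.8. In CDAHFD controls Id3 was first at 945 ± 222 (SD, n = 5) and overlapped Cd5l at 698 ± 182. Timd4 at 6.16 ± 4.99 and Folr2 at 6.09 ± 3.68 were last, clear of Adgre1 at 61 ± 18, and in the CDAHFD Mdm2 ASO libraries they were also last, at 7.25 ± 2.53 and 4.13 ± 4.85.

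The balance among the genes within a library differed as well. Relative to 100 normalized counts of Adgre1, Vsig4 ranged from 101 to 150 in HFHC controls and from 52.9 to 72.3 after the Mdm2 ASO, and Timd4 from 8.53 to 27.7 and from 3.49 to 6.94. For both, the Mdm2 ASO libraries were below all 4 controls. Folr2 moved the same way, with 46.7 to 59 against 28 to 36.6, as did Mertk, with 100 to 189 against 56.7 to 87.3. Clec4f, outside the set of 9, had 247 to 396 in HFHC controls and 87.2 to 171 after the Mdm2 ASO. Cd5l (770 to 1181 against 646 to 790), Marco (9.25 to 74.4 against 8.08 to 93.7) and Csf1r (225 to 364 against 297 to 376) overlapped, and Spic was higher, with 8.03 to 11.5 against 26.1 to 38. A gene with a smaller fold than Adgre1 falls against it by construction. On CDAHFD the ranges overlapped for Vsig4 (75.6 to 155 against 58.6 to 101), Timd4 (3.28 to 13 against 3.94 to 16.4) and Clec4f (387 to 637 against 282 to 1005). These ratios are descriptions without a test.

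Of the 9 genes, all but Id3 varied together among HFHC libraries of the same group. Averaged over all 9 genes, controls 2 and 5 deviated from their group mean by 0.509 and 0.618 on the log2 scale and controls 1 and 4 by -0.623 and -0.504. Over the 7 HFHC libraries, the deviation of each gene correlated with the mean of the other 8 at Pearson r from 0.672 (Mertk) to 0.98 (Adgre1), Id3 at -0.0936 being the exception. Over the 10 CDAHFD libraries, Adgre1 (0.569), Cd5l (0.53) and Csf1r (0.484) were highest, and Mertk was at -0.347. Of the 36 pairs of genes over all 17 libraries, 10 had r over 0.5, led by Timd4 with Marco at 0.871, Adgre1 with Csf1r at 0.85 and Adgre1 with Cd5l at 0.826. The points of such a correlation share library, depth and cell content, so r is given as a description. Of 16324 genes, those whose deviations were most like the mean of the 9 were Fpr1 (r = 0.871), Adgre4 (0.815), Sp3 (0.814), Cfp (0.787) and Ctsc (0.779). Fpr1 is a formyl peptide receptor of phagocytes, Adgre4 a relative of Adgre1, Cfp encodes properdin, Ctsc a lysosomal protease and Sp3 a broadly expressed transcription factor. Adgre4 also rose on HFHC, from 89.5 ± 34.8 (SD, n = 4) to 1280 ± 97.3 normalized counts (SD, n = 3; limma adjusted p = 5.3e-06).

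**Figure D3:**
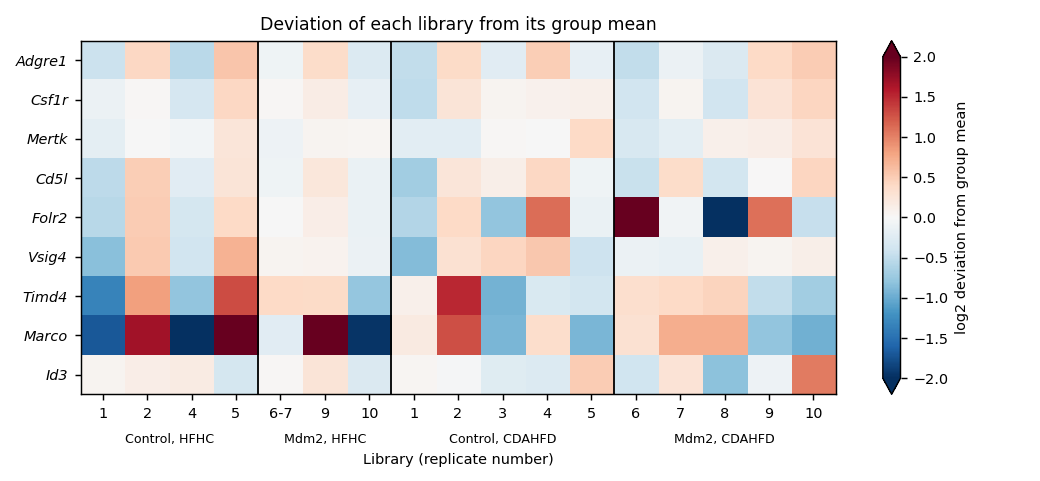
Deviation of each library from its group mean on the log2 scale (colour, red above and blue below, capped at 2) for the 9 genes (rows) in the 17 libraries (columns, replicate numbers, with black lines between groups). HFHC controls 2 and 5 are red and controls 1 and 4 blue in most rows. The rows of Mertk, Csf1r and Adgre1 are pale, and those of Marco, Timd4 and, on CDAHFD, Folr2 are the darkest.

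Other Kupffer cell genes also moved on HFHC. Of 17 tested, 10 rose and 0 fell, with a median log2 fold change of 0.86, and each of the 10 had no overlap between groups. The other 7 did not pass, the lowest being Cd163 at a log2 fold change of -1.12 (limma adjusted p = 0.288). Spic, the factor of iron-recycling macrophages, went from 35.8 ± 11.2 (SD, n = 4) to 391 ± 154 normalized counts (SD, n = 3), a log2 fold change of 3.41 (SE 0.31, limma adjusted p = 3.5e-05). Hmox1, which breaks down heme, went from 725 ± 92.6 to 3814 ± 906 (limma adjusted p = 3.9e-06), Nr1h3 from 1793 ± 161 to 4220 ± 104 (5.5e-06), and Fcna, a ficolin of macrophages, from 344 ± 110 to 1322 ± 250 (0.00013). These 4 serve iron and lipid handling and innate recognition. Clec4f did not pass, at 1198 ± 422 and 1430 ± 161 (log2 fold change 0.32, limma adjusted p = 0.341). On CDAHFD 1 of the 17 rose, Fcna (log2 fold change 0.57, limma adjusted p = 0.0345, lost with the same total per library and without control 1 or 5 or Mdm2 ASO replicate 6, 8 or 9), and 1 fell, Hmox1, from 934 ± 203 to 555 ± 148 (-0.76, limma adjusted p = 0.0181). Clec4f was at -0.06 there (limma adjusted p = 0.881). At an unadjusted limma p under 0.05, 3 of the 17 were higher on CDAHFD and 4 were lower. The CDAHFD response was below that on HFHC for Spic, Hmox1 and Nr1h3, with differences of -4.04, -3.14 and -1.05 in log2 fold change (limma adjusted p = 1.9e-06, 5.7e-07 and 1.6e-05).

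The ligands and partners of the 2 receptor kinases did not move as one. Of 6 on HFHC, 2 rose and 1 fell. Il34 rose from 84.7 ± 10.4 (SD, n = 4) to 129 ± 6.11 normalized counts (SD, n = 3; limma adjusted p = 0.0106, lost after quantile normalization at 0.054), and Axl, the other TAM kinase of macrophages, from 866 ± 97.7 to 1928 ± 142 (limma adjusted p = 2.4e-05). Gas6, the ligand of Mertk and Axl, fell from 3311 ± 550 to 1952 ± 24.9 (limma adjusted p = 0.00135), and its response differed between the diets by 0.96 on the log2 scale (limma adjusted p = 0.00453). Csf1 had a log2 fold change of -0.22 on HFHC (limma adjusted p = 0.353). On CDAHFD Csf1 was the 1 of 6 that fell, from 600 ± 132 (SD, n = 5) to 372 ± 62.2 (SD, n = 5) with no overlap (limma adjusted p = 0.0109), and 0 rose.

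Of 14 genes for the Notch, BMP and TGF-beta signals of the Kupffer cell niche, 9 rose and 0 fell on HFHC in limma, with a median log2 fold change of 0.69. Bmp10, a BMP ligand, went from 29.1 ± 3 (SD, n = 4) to 91.1 ± 3.74 normalized counts (SD, n = 3; limma adjusted p = 0.00012), and its receptor gene Acvrl1 from 87.4 ± 8.48 to 214 ± 28.8 (0.00012). Notch2 went from 818 ± 21 to 1231 ± 86.9 (0.00028). At an unadjusted p under 0.05, 2 of the 14 were lower, as were 2 called after quantile normalization, 2 called without Mdm2 ASO replicate 6-7 and 1 called by DESeq2. The 2 at an unadjusted limma p were the Notch ligand genes Dll1 and Jag1. Their log2 fold changes were -1.19 and -0.62 (limma adjusted p = 0.0628 and 0.0607). For Jag1 the Mdm2 ASO libraries were below all controls. On CDAHFD 1 rose, Notch1, from 714 ± 137 (SD, n = 5) to 1155 ± 178 (SD, n = 5; limma adjusted p = 0.0052), and 0 fell. Notch1 is named for its values, as are Cd163, Dll1 and Jag1 above. So are Cebpb, Lpl, Stab1, Ctsd, Spp1 and Cd63 where they appear next.

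Most markers of all macrophages, and many of other white cells, were also higher on HFHC. Of 14 pan-macrophage genes 12 rose and 0 fell, with a median log2 fold change of 1.74. Their summed level ranged from 11698 to 17061 normalized counts in controls and from 41285 to 46274 after the Mdm2 ASO. Spi1, which encodes PU.1, went from 242 ± 24 (SD, n = 4) to 2114 ± 149 (SD, n = 3; limma adjusted p = 1e-07), and C1qb, of the complement C1q complex, from 1416 ± 216 to 7192 ± 212 (6.7e-07). On CDAHFD their sums were 14290 to 24462 in controls and 13359 to 23163 after the Mdm2 ASO. These ranges overlap over most of their length, and the median log2 fold change was -0.31.

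Of 10 nonclassical monocyte genes 7 rose on HFHC and 0 fell, with a median log2 fold change of 2.24 and sums of 4417 to 6024 against 28486 to 33045 normalized counts. Fcgr4, an Fc receptor, went from 190 ± 24.8 (SD, n = 4) to 11225 ± 671 (SD, n = 3; limma adjusted p = 5.4e-09), and Cd300e from 33 ± 12 to 3486 ± 428 (1.6e-07). Spn, which encodes CD43, had 55.9 ± 16.2 and 2474 ± 61.3 (2.5e-07). Of 10 classical monocyte genes 6 rose and 0 fell, with Chil3 at 22.1 ± 5.95 and 146 ± 55.6 and Ly6c2 at 22.9 ± 10.6 and 96 ± 16 (limma adjusted p = 0.00018 and 0.00226). Their summed level of 20695 to 24152 against 23864 to 31243 was almost all Fn1, fibronectin, which did not pass (limma adjusted p = 0.142, and 0.0245 and 0.0242 with quantile normalization and the same total per library) and is named for its values. Without Fn1 the other 9 summed to 543 to 771 against 1607 to 2045. All 8 neutrophil genes rose, with sums of 241 to 507 against 2459 to 3429. Of these, Ly6g entered the test only through the Mdm2 ASO libraries, at 2.84 to 7.41 normalized counts against at most 0.999 in controls. The filter thus favoured a rise of Ly6g, which rests on few reads. Of 8 dendritic cell genes 4 rose and 0 fell, a count that ranged from 1 to 5 with 1 library left out, with sums of 369 to 454 against 483 to 629. The 9 Kupffer cell genes themselves summed to 6231 to 9970 in HFHC controls and 14605 to 19906 after the Mdm2 ASO. Most of that rise came from Cd5l (means of 3493 and 8066) and Csf1r (1067 and 3906), while Vsig4, Timd4 and Marco did not pass and Id3 fell. No defining marker of these lists was at 0 in every control, though the neutrophil gene Ly6g had a control median of 0 on each diet. Csf1r, Adgre1 and Mertk are also expressed by monocytes and other macrophages. The part of these cells in the HFHC result was not tested.

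On CDAHFD 1 nonclassical monocyte gene rose, Cebpb, which many other cells also express (log2 fold change 0.49, limma adjusted p = 0.0169, lost with 1 fit over all groups at 0.11). The list's sums were 11047 to 16820 against 17587 to 23775, of which Cebpb made up most. The other 9 genes summed to 1904 to 3353 in controls and 1834 to 5394 after the Mdm2 ASO, which overlap. Classical monocyte genes (10 tested), dendritic cell genes (8) and neutrophil genes (7) had 0 calls in limma there, with 1 classical monocyte gene lower at an unadjusted p under 0.05 and by edgeR and DESeq2, and 0 of the others by any of these. The neutrophil sums on CDAHFD, 255 to 517 and 194 to 492, overlapped. Among 14 pan-macrophage genes there, 3 were lower and 1 was higher at an unadjusted limma p under 0.05. The part of cell content in the fall of Cd5l on CDAHFD was not tested.

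Lipid-associated macrophage genes, a program of macrophages in fatty liver, were mixed. On HFHC 5 of 10 fell, Mmp12, Gpnmb, Cd9, Spp1 and Cd63, and 2 rose, Lgals3 and Ctsd, with a median log2 fold change of -0.56. DESeq2 called 4 higher, and the count was 1 without Mdm2 ASO replicate 9 and 3 without control 1 or Mdm2 ASO replicate 10. The Ctsd call was lost without Mdm2 ASO replicate 9 (adjusted p = 0.0734) and with 1 fit over all groups (0.0989). Gpnmb went from 763 ± 74.8 (SD, n = 4) to 260 ± 58.8 normalized counts (SD, n = 3; limma adjusted p = 3.9e-05). On CDAHFD 2 fell, Cd9 (log2 fold change -1.06, limma adjusted p = 0.012) and Lpl (which fell by 1.00, limma adjusted p = 0.033), and 0 rose, and without Mdm2 ASO replicate 10 the count that fell was 8. The Lpl call was lost with edgeR and DESeq2 and in 7 of 10 fits that left out 1 library. Peritoneal macrophage genes, checked because such cells can enter the liver, had 1 rise and 1 fall of 4 on HFHC. Cxcl13 rose (log2 fold change 4.79, limma adjusted p = 0.00609), and Gata6, the defining factor of those cells, fell (-0.49, limma adjusted p = 0.0221, lost without control 4 or 5 or Mdm2 ASO replicate 6-7 and with the same total per library). Which cells of the whole liver gave these transcripts was not tested. On CDAHFD 0 of 3 were called by limma, edgeR or DESeq2 or had an unadjusted p under 0.05.

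Of 10 sinusoidal endothelial genes 8 rose and 0 fell on HFHC, with sums of 5152 to 5743 against 8428 to 9183 normalized counts. On CDAHFD 1 rose, Stab1 (log2 fold change 0.51, limma adjusted p = 0.0401, lost with the same total per library and in 6 of 10 fits that left out 1 library), and 0 fell. There 4 of the 10 had a higher level at an unadjusted p under 0.05, edgeR called 2 higher, DESeq2 4 and limma after quantile normalization 3, and 3 had no overlap between groups. Hepatocyte genes had 0 of 10 called on either diet in limma, with 1 and 4 at an unadjusted p under 0.05 on HFHC and CDAHFD, 1 and 3 called by edgeR and 3 and 3 by DESeq2. After quantile normalization 2 of them were higher on HFHC and 2 lower on CDAHFD. Without overlap between groups, 1 was higher and 2 lower on HFHC, and 1 higher and 1 lower on CDAHFD. Mitochondrially encoded transcripts fell on HFHC in 10 of 13, with a median log2 fold change of -0.94 and sums of 1228744 to 1506256 against 662299 to 774012. There edgeR and DESeq2 each called 12 lower, 12 had no overlap between groups, and limma called 7 to 10 lower with 1 library left out. Of the 13, 1 rose on CDAHFD, mt-Nd3 (1.16, limma adjusted p = 0.00369). Their part in the rise of the Kupffer cell genes was not tested.

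**Figure D4:**
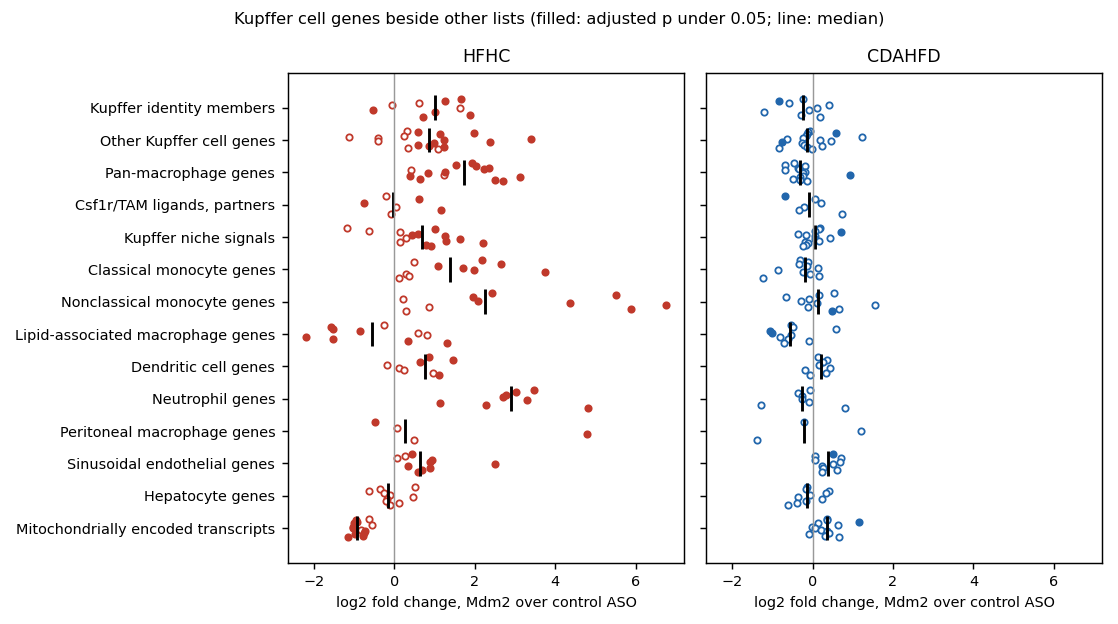
Log2 fold change of the Mdm2 ASO over the control ASO (horizontal axis) for the 9 Kupffer cell identity genes and 13 other gene lists (rows), on HFHC (left, red) and CDAHFD (right, blue). Each point is a gene, filled where its adjusted p in limma was under 0.05, and black bars are list medians. On HFHC the medians of pan-macrophage (1.74), classical monocyte (1.39), nonclassical monocyte (2.24) and neutrophil genes (2.91) lie right of that of the 9 genes (1.00), and on CDAHFD the medians of all 14 lists lie between -0.57 and 0.38.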

How the data were processed

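Liver RNA was prepared with a column kit into strand-specific mRNA libraries, per the labels' protocols. The submitters' processing notes name STAR 2.7.10b, featureCounts, Subread 2.0.3 and the GRCm39 build. The authors deposited TMM-normalized counts, 1 table for each diet, with 33235 genes and 0 columns from outside the series, and these values were treated as a signal that the authors had scaled. Within 0.001, at least 99.999% of values in each library were whole multiples of 1 step, so reads could be recovered. edgeR on these reads called 5335 genes on HFHC and 2186 on CDAHFD, against 5331 and 2181 with the main test.

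A gene entered the test where the number of libraries with a value of 1 or more reached the size of the smaller group (17441 genes on HFHC, 16803 on CDAHFD). The test was run on log2(value + 0.5), which understates the change of low genes, with limma-trend 3.58.1 within each diet and Benjamini-Hochberg adjustment over all genes tested. All 9 members passed this filter in both tables. An interaction contrast over the 16333 genes in both sets gave the difference between diets. Fitted folds are 2 to the power of the log2 fold change. Alternatives were edgeR 4.0.16 and DESeq2 1.42.0 on recovered reads, other pseudocounts, filters and scalings, 1 fit over all groups, a replicate block, and leaving out each library. Scripts were tested on simulated data. R 4.3.3 and Python 3.11.15 were used.

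The members, gene lists and naming rule were chosen with earlier results of these data known. The rule names the 9 members, Mdm2, Cdkn1a, Clec4f, Spic, Nr1h3, Csf1, Il34 and Gas6, up to 4 members of each other list with the smallest p, and the 5 genes most like the members. The text names part of them. Exonic lengths come from GENCODE M21 on GRCm38, a build other than that of the files, and promoter sequences from RefSeq on GRCm38.p6. Precision is limited by depth and by 3 to 5 libraries a group.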

Additional observations from a re-analysis of the deposited data

Results flagged for a closer look

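Timd4 in CDAHFD control replicate 2 stood at 32.4 normalized counts, far above the other 4 controls. Its gap to the next control was 0.766 of the group's range, past the critical share of 0.71 for 5 samples. Chance passes about 1 in 20 groups, and 27 groups of member values were screened. The same library was also the highest CDAHFD control for Marco, at 359, and for Csf1r, at 1556.

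The Mdm2 ASO response differed between the diets, by an interaction test, for 4 of the 9 genes, against 23.5% of all genes tested. The CDAHFD minus HFHC difference in log2 fold change was -1.90 for Adgre1, -2.09 for Cd5l, -1.19 for Vsig4 and -2.17 for Csf1r. Vsig4 was just within the threshold (limma adjusted p = 0.0489) and no longer passed in 15 of 26 alternative fits. For Cd5l the gene was called on each diet by itself, in opposite directions.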

How the results depend on the processing

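Of 538 values of the 9 genes under the alternatives, 491 kept their direction and their side of the threshold, 24 lost and 8 gained a call, and 15 changed sign. Of 2517 values of the other named genes, 2421 kept both, 33 lost and 36 gained a call, and 27 changed sign. Cd163, Dll1 and Jag1 are not among those genes. None of the sign changes was called, and the cause was not tested. The number of members called on CDAHFD was 1, went to 2 with DESeq2, and ranged from 0 to 2 with 1 library left out. It ranged from 5 to 6 on HFHC and from 3 to 5 for the difference. Over all genes, calls without 1 library ranged from 1232 to 2283 on CDAHFD, from 3684 to 5021 on HFHC and from 3084 to 4029 for the difference.

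Log2 values that changed sign on HFHC were those of Timd4, at 0.04 with the same total per library and 0.03 with replicates 6 and 7 counted as 2. With 1 library left out on HFHC, Timd4 ranged from -0.51 to 0.37, Notch1 from -0.01 to 0.25 and Cebpb from -0.09 to 0.73. On CDAHFD, Id3 was 0.04 with edgeR and with DESeq2, and Adgre4 0.02 and 0.03. With 1 library left out there, Id3 ranged from -0.34 to 0.13, Marco from -0.12 to 0.43, Clec4f from -0.20 to 0.10, Il34 from -0.08 to 0.15, Bmp10 from -0.11 to 0.18, Ly6c2 from -0.56 to 0.03, Spn from -0.14 to 0.45 and Adgre4 from -0.18 to 0.10. For the difference between diets, Mdm2 was -0.01 and Stab1 -0.04 with the same total per library. With 1 library left out, Mdm2 ranged from -0.02 to 0.22, Cebpb from -0.24 to 0.58 and Stab1 from -0.05 to 0.18.

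Control and Mdm2 ASO groups of a diet share no replicate numbers, so a replicate block could be fitted for the difference between diets alone. There the deviations of the 7 same-numbered pairs correlated at -0.0659 to 0.105, and 4 of 7 pairs correlated best with their own number. The labels do not say what equal numbers share, and these values do not decide whether the numbers pair the samples. With the replicate block 3033 genes were called against 3832. Vsig4 was then at an adjusted p of 0.0724 and Mertk at 0.0436 (limma), while Timd4 was at -0.03 and Cd9 at 0.19. Depth limits Timd4 and Folr2 on CDAHFD most, at 0 to 35 reads a library.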
